A study of Mus musculus with 13 samples.

Results

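The 4 probes described here, miR-422a, miR-885-5p, miR-523-5p and miR-1246, belong to a panel of 68 microRNA (miRNA) probes that carry human names. They were chosen by name, as the human miRNAs for which no mouse gene of that name was found, a rule that uses no measured value. The panel was read in exosomal RNA from the plasma of 13 male wild-type (WT) C57BL/6J mice. At 24 hours before sampling, 8 mice had undergone cecal ligation and puncture (CLP), a model of sepsis in which the tied and pierced cecum leaks gut bacteria, and 5 a sham operation, the control. Each mouse gave 1 sample, and no batch, plate or RNA input was given, so each p-value reflects the spread of these samples, whatever its source. The panel holds no probe that tells exosomal RNA from other plasma RNA, so the source was taken from the labels.

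A miRNA is cut from a hairpin transcript and pairs with messenger RNAs mainly through its seed, the bases near its 5′ end. The assay, FirePlex, captures RNA on probe-bearing hydrogel particles, ligates adapters to the captured RNA and amplifies it, so a reading comes from any RNA that both hybridizes and is ligated. For a human miRNA that mice do not encode, a probe would therefore read what it returns without its own target, whether background fluorescence or RNA of related sequence. The lack of a mouse gene of that name does not show that mouse plasma holds no RNA matching the probe. In humans, miR-422a shares its seed with the miR-378 family and has been studied in hepatocytes as a repressor of the bile acid enzyme CYP7A1. miR-885-5p has been studied in human serum as a miRNA associated with the liver. miR-523-5p comes from a primate-specific placental cluster on human chromosome 19, and miR-1246 has been traced in human cells to U2 small nuclear RNA, a spliceosome component rather than a canonical hairpin.

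The mouse gene table used (GRCm38.p6, RefSeq) listed none of the 4 names among its 1228 miRNA genes, as symbol or as synonym. Of the other 64 probes, 59 had a mouse miRNA of the same number and letter and 5 of the same number only. The panel has 0 probes named miR-378 and no probe of the chromosome 19 cluster other than miR-523-5p itself. The sequences of the 4 human miRNAs and of the probes were not used here, so no match of a probe to a mouse RNA was computed. To show the mouse family that human miR-422a belongs to, 3 of its members are given here, 5′ to 3′ with bases 2 to 8, the seed, in capitals.
miR-378b: cUGGACUUggagucagaaga
miR-378c: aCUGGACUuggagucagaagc
miR-378d: aCUGGCCUuggagucagaaggu
They lie at chr11:88352839-88352858 on the plus strand (gene Mir378b), chr14:46954905-46954925 on the minus strand (Mir378c) and chr10:126710355-126710376 on the minus strand (Mir378d) of GRCm38.p6. The 3 seeds differ between these members, and which of them matches miR-422a was not computed. The family also has the mouse gene miR-378a, whose sequence is not shown here.

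The 4 probes fell into a bright pair and a dim pair. miR-422a and miR-885-5p read above the floor of 2.10 units (the 5th percentile of positive raw values) in all 13 mice. miR-523-5p did so in 4 mice and miR-1246 in 1 mouse, so that these 2 could not enter a fit that asked for 5 mice above the floor. Raw fluorescence of the whole panel summed to between 33043 and 74685 units in CLP mice and between 10598 and 45121 units in sham mice. Sham mouse 4 held 7 exact zeros and 1 empty cell, and the raw columns labelled CLP 6 and CLP 7 carry each other's values in the authors' second table, so single values of those 2 mice follow the raw labels.

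miR-422a had a lowest raw signal of 38.68, a median of 89.0 and a highest of 185.86 units in CLP mice. In sham mice it read 11.26, 26.53, 28.11, 19.9 and 35.21 units for mice 1 to 5. The groups did not overlap: the dimmest CLP mouse, number 8, lay above the brightest sham mouse, number 5. The means were 98.05 ± 53.3 units (SD, n = 8) in CLP and 24.2 ± 9.05 units (SD, n = 5) in sham. Of the 68 probes on the panel, 10 had raw groups that did not overlap, or 14.7%, and miR-422a was the only 1 of the 4 among them.

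miR-885-5p had a lowest raw signal of 14.19, a median of 44.3 and a highest of 92 units in CLP mice. In sham mice it read 9.48, 9.84, 29.64, 5.06 and 32.78 units for mice 1 to 5. The groups overlapped, since CLP mouse 8 lay below sham mice 3 and 5, while the other 7 CLP mice lay above every sham mouse. The means were 49.5 ± 23.7 units (SD, n = 8) in CLP and 17.4 ± 12.8 units (SD, n = 5) in sham.

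miR-523-5p had a lowest raw signal of 0.69, a median of 1.73 and a highest of 4.13 units in CLP mice. In sham mice it read 1.08, 0.27, 2.29, 0 and 1.15 units for mice 1 to 5. The groups overlapped: 3 of 8 CLP mice (1, 3 and 4) lay above every sham mouse, and sham mouse 4 was listed at 0. The means were 1.95 ± 1.17 units (SD, n = 8) in CLP and 0.958 ± 0.897 units (SD, n = 5) in sham.

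miR-1246 was the dimmest of the 4 by its mean over all mice. Its raw signal in CLP mice had a lowest value of 0.23, a median of 1.54 and a highest of 3.51 units, the last in CLP mouse 4 and its single value above the floor. In sham mice it read 0.4, 0.12, 1, 0 and 1.07 units for mice 1 to 5. The groups overlapped, with CLP mice 6 and 8 inside the sham range and the other 6 above it. The means were 1.495 ± 1.02 units (SD, n = 8) in CLP and 0.518 ± 0.494 units (SD, n = 5) in sham.

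**Figure D1:**
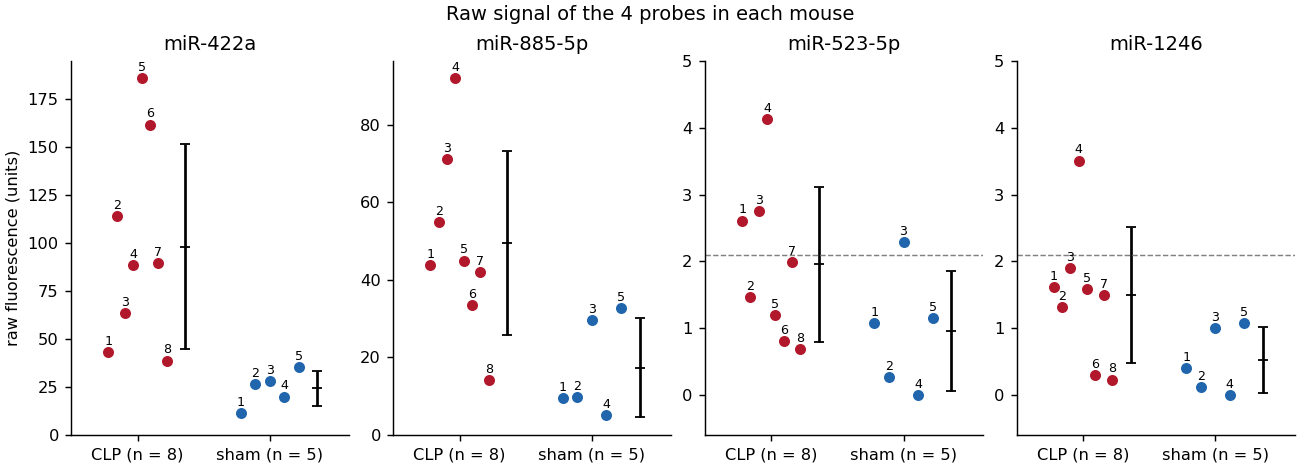
Raw fluorescence (y axis, linear units, scaled apart for miR-422a, miR-885-5p and the other 2) of the 4 probes in each mouse, with CLP in red (n = 8) and sham in blue (n = 5). Numbers are mouse numbers, black bars are the mean ± SD, and the dashed line is the floor of 2.10 units where it fits the scale. No sham mouse reaches a CLP mouse for miR-422a, and CLP mouse 4 is highest for the other 3 probes.

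The first comparison asked whether these probes were brighter after CLP before any scaling between mice. Both bright probes rose. miR-422a was 3.78-fold higher in CLP (log2 1.92, SE 0.46, limma adjusted p = 0.000726) and miR-885-5p 3.25-fold higher (log2 1.70, SE 0.51, limma adjusted p = 0.00421). Over the panel 60 of the 66 probes tested rose, or 90.9%, so 2 called of 2 tested is near the background share. The median change of the 66 probes was 1.87 log2 units, and miR-422a ranked 32nd and miR-885-5p 40th from the largest change. Both thus changed by an amount close to that of the median probe.

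The call of miR-885-5p depended on the dimmest sham mice, as did many calls of the panel. Without sham mice 1 and 4, 37 of 66 panel probes were called, against 60 with all mice. Without sham mice 1 and 4, the 2 mice of lowest geometric mean signal, it was 1.05 log2 units higher (SE 0.52) and did not pass (limma adjusted p = 0.0909; over all its alternatives 5.19e-05 to 0.578), while miR-422a still did. With the level of the mouse (its log2 geometric mean) as a covariate in limma, miR-422a was at 0.55 (SE 0.50, adjusted p = 0.538) and miR-885-5p at -0.42 (SE 0.44, adjusted p = 0.578), and neither passed. Over the panel 8 of 66 probes passed with that covariate. The level itself differed between groups, with a mean of 376 units in CLP and 112 units in sham mice. This fit therefore cannot separate a change with the level from a change with CLP.

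For the dim pair, a fit of all 68 probes on log2(value + 1), chosen after the data were seen, gave 0.67 for miR-1246 (SE 0.42, limma adjusted p = 0.128) and 0.62 for miR-523-5p (SE 0.42, limma adjusted p = 0.159). Neither passed, against 89.7% of the panel called higher in that fit. The pseudocount of 1 unit is about as large as the readings, so these changes are understated. On linear raw signal the CLP mean was 2.89 times the sham mean for miR-1246 and 2.04 times for miR-523-5p. By an exact two-sided permutation test of that difference over every split of the mice into 8 and 5, miR-1246 had p = 0.0653 (Benjamini-Hochberg adjusted over the 68 probes, 0.0728) and miR-523-5p p = 0.134 (adjusted 0.144). The same exact permutation test called miR-422a (p = 0.0117, adjusted 0.0193) and miR-885-5p (p = 0.0163, adjusted 0.0226) higher, with 83.8% of the panel called. A difference of either dim probe was thus not detected. miR-376b-3p, a probe of similarly low sham signal, was called higher by both tests (limma adjusted p = 0.00463, exact permutation adjusted p = 0.0201). It was not called in the floored fit (limma adjusted p = 0.0752). Its CLP mean was 3.83 units, against 1.495 for miR-1246 and 1.95 for miR-523-5p, so it is like them in sham mice only. Why the dim pair was not called was not tested. No split of 8 and 5 mice can give a p below 0.000777.

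The second comparison asked whether the probes moved relative to the other probes, with all mice brought to a common geometric mean of the 60 probes above 0 in all mice. Scaled miR-422a had a lowest value of 37.2, a median of 67.9 and a highest of 114.03 units in CLP mice, and read 67.5, 74.8, 61.3, 109.6 and 40.2 units in sham mice 1 to 5. Scaled miR-885-5p had a lowest value of 23.7, a median of 36.2 and a highest of 52.1 units in CLP mice, and read 56.9, 27.7, 64.6, 27.9 and 37.4 units in sham mice 1 to 5. For miR-422a the sham values lay within the CLP range. For miR-885-5p the groups overlapped in part, with sham mice 1 and 3 above every CLP mouse and CLP mice 5, 6 and 8 below every sham mouse.

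Of the 2 that could be tested, 0 passed in the scaled fit, where 20 of 65 probes passed, or 30.8% (7 higher and 13 lower). The direction of the panel's calls depends on the scaling, with 18 higher and 4 lower by the 75th percentile and 13 higher and 6 lower in the authors' values. miR-422a was at -0.02 (SE 0.31, limma adjusted p = 0.953) and miR-885-5p at -0.24 (SE 0.26, limma adjusted p = 0.511), and both had an unadjusted p above 0.05. The exact permutation test on the scaled values likewise called 0 of the 2. The sign of both values depends on the scaling, since miR-422a was at 0.33 and miR-885-5p at 0.10 with the 75th percentile of each mouse in place of the geometric mean. With all 68 probes on log2(value + 1), where 29.4% of the panel passed, miR-1246 was at -0.02 (SE 0.31) and miR-523-5p at -0.26 (SE 0.42), and neither passed.

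**Figure D2:**
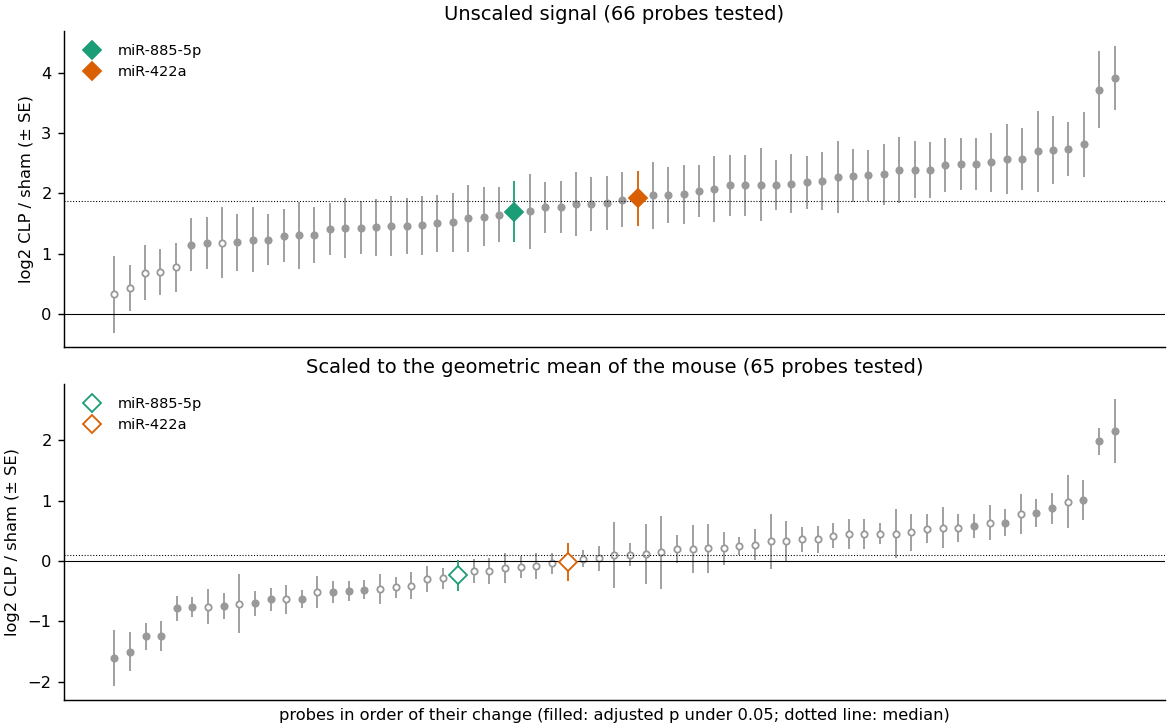
Log2 change between CLP and sham (y axis, ± SE) for every probe tested, in order of size (x axis), on the unscaled signal (top, 66 probes) and after scaling to the geometric mean (bottom, 65 probes). Filled symbols passed at an adjusted p under 0.05 and the dotted line is the median; miR-422a and miR-885-5p lie near the median in both, at 1.92 and 1.70 unscaled and at -0.02 and -0.24 scaled.

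As a guide to background, the readings of the 4 probes were set beside those of the other 64 in the same mouse. Probes differ in efficiency, so this is a count of fluorescence readings and does not rank miRNA abundance. The reading of miR-1246 had 0 other probes at or below it in every CLP mouse. In sham mice it had between 0 and 5, the 5 in sham mouse 4, where those probes were at 0 as it was. miR-523-5p had 0 or 1 other probes at or below it in CLP mice and 0 to 5 in sham mice. The dim pair thus marked the bottom of the panel in CLP mice, and in sham mice a few further probes read as low.

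The bright pair lay well inside the range of the panel. miR-422a had between 14 and 22 other probes at or below it in CLP mice and between 12 and 22 in sham mice. For miR-885-5p the corresponding counts were 11 to 16 in CLP mice and 11 to 19 in sham mice. Each of these 2 probes without a mouse gene therefore read at or above 11 or more probes with a mouse namesake in every mouse. In CLP mice the 4 probes together held 0.245% ± 0.067 (SD, n = 8) of all raw signal and in sham mice 0.189% ± 0.036 (SD, n = 5). A difference in this share was not detected (exact permutation test, two-sided, p = 0.123, and 0.246 adjusted over 2 ratios).

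**Figure D3:**
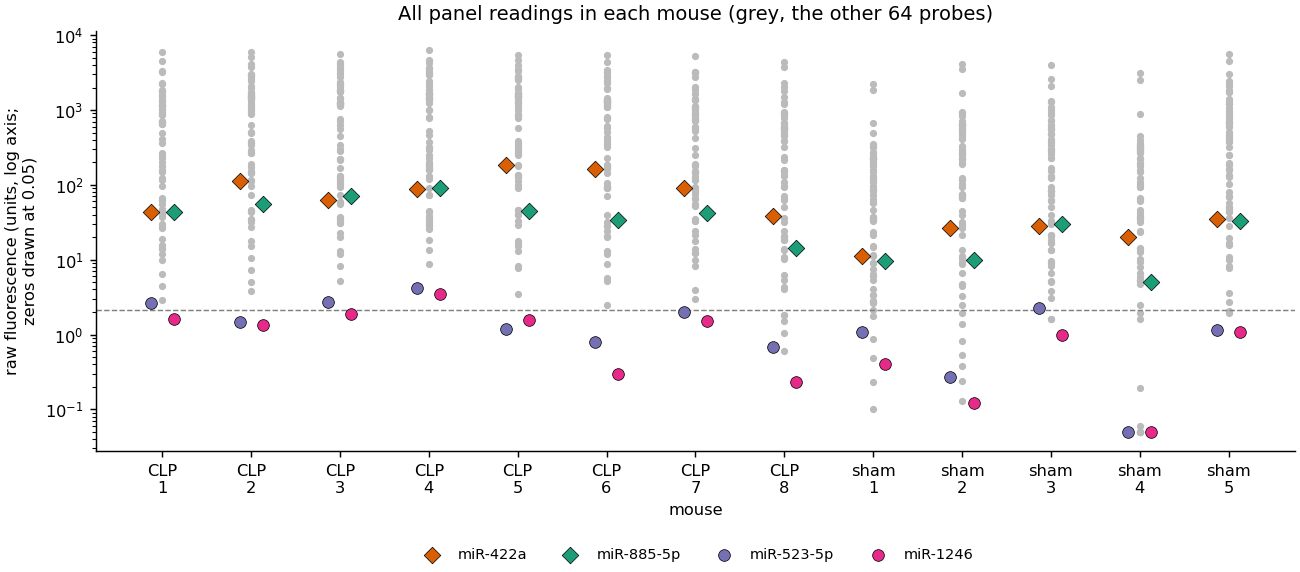
Raw fluorescence (y axis, log scale, zeros drawn at 0.05) of all 68 probes in each of the 8 CLP and 5 sham mice (x axis), with the 4 probes in colour, the other 64 in grey and the floor of 2.10 units dashed. miR-523-5p and miR-1246 sit at the foot of the column in CLP mice, with up to 5 grey readings as low in sham mice, and miR-422a and miR-885-5p sit at or above at least 11 grey readings in every mouse.

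The 5 other probes with the lowest mean log2 signal over all mice were miR-376b-3p, miR-154-3p, miR-429, miR-129-5p and miR-431-3p, each with a mouse gene of the same name. miR-376b-3p averaged 3.83 ± 2.30 units in CLP (SD, n = 8) and 0.802 ± 0.894 units in sham (SD, n = 5). miR-431-3p, the brightest of the 5, averaged 15.5 ± 10.4 units in CLP (SD, n = 8) and 4.42 ± 4.05 units in sham (SD, n = 5). In 7 CLP mice all 5 read above both dim probes, and in CLP mouse 8 miR-154-3p, at 0.61 units, read below miR-523-5p. In sham mice the 5 ran from 0 to 9.02 units, and up to 5 panel probes in a mouse read no brighter than the brighter of the dim pair. On the unscaled signal miR-429 (1.46, SE 0.46), miR-129-5p (2.16, SE 0.49) and miR-431-3p (1.59, SE 0.56) passed in the floored limma fit. miR-154-3p (1.41, SE 0.43) passed and miR-376b-3p (0.77, SE 0.41, limma adjusted p = 0.0752) did not. In sham mice these last 2 read at most 2.08 and 1.91 units, below the floor. They entered the floored fit through CLP mice alone, so that fit could not show a fall and its direction is no result. In sham mice 1 to 5, miR-429 read 0.49, 0.38, 3.82, 0.06 and 3.59 units. miR-129-5p read 0.87, 0.81, 3.07, 0 and 2.73 units. Most of these lie below the floor and CLP mice alone met the filter, so the floored fit could hardly show a fall. The exact permutation test on linear signal, without floor or filter, called both higher (adjusted p = 0.0193 and 0.0181), with 83.8% of the panel called. Whether these changes differ from those of miR-1246 and miR-523-5p was not tested.

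The 4 probes were then used to set how bright a probe must be to enter the panel's tests. With the 49 probes that read above the brightest of the 4 in at least 5 mice, 44 rose on the unscaled signal, and 6 rose and 16 fell after scaling. With the 56 probes above the median of the 4, 51 rose unscaled, and 7 rose and 16 fell after scaling. When the median of the 4 in each mouse was subtracted from every other probe, 53 probes could be tested, of which 48 rose unscaled, and 9 rose and 12 fell after scaling. The full panel had 60 that rose unscaled, and 7 that rose and 13 that fell after scaling to the geometric mean, a split that is the other way round with the 75th percentile (18 and 4). Whether the same probes were called was not compared.

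A positive correlation of miR-422a with the rest of the 4 probes was not detected over the 8 CLP mice. Relative to the panel, miR-1246, miR-523-5p and miR-885-5p were high and low in the same CLP mice. On scaled log2 signal over the 8 CLP mice, miR-885-5p correlated with miR-1246 at Pearson r = 0.88 (exact permutation p = 0.00141, adjusted 0.00565) and Spearman rho = 0.90 (exact permutation p = 0.00456, adjusted 0.0274), with r = 0.85 without the 2 mice farthest from the median of miR-1246. With miR-523-5p it correlated at r = 0.87 (exact permutation p = 0.00952, adjusted 0.0229) and rho = 0.81 (exact permutation p = 0.0218, adjusted 0.0373), with r = 0.75 without the 2 mice farthest from the median of miR-523-5p. Adjustment was by Benjamini-Hochberg over 12 relations, the 6 pairs of probes on raw and on scaled signal. Both of these relations kept p under 0.05 when any 1 CLP mouse was left out.

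miR-1246 and miR-523-5p correlated at r = 0.79 (exact permutation p = 0.0153, adjusted 0.0306) and rho = 0.88 (exact permutation p = 0.00724, adjusted 0.0290), with r = 0.89 without the 2 farthest mice. That relation on scaled signal did not hold at p under 0.05 without CLP mouse 4 (r = 0.74, exact permutation p = 0.0538) or CLP mouse 6 (r = 0.65, exact permutation p = 0.111). On the raw signal the same pair correlated at r = 0.91 (exact permutation p = 0.000471, adjusted 0.00357) and rho = 0.93 (exact permutation p = 0.00223, adjusted 0.0268), with r = 0.81 without the 2 farthest mice, and it held without any 1 mouse. On raw signal 7 of 8 CLP values of miR-1246 and 5 of 8 of miR-523-5p lie below the floor. On scaled signal all of them do, since their highest CLP values were 1.99 and 2.43 units against a scaled floor of 3.09. The correlations among the 4 probes used values without a floor. Every relation of miR-1246 or miR-523-5p thus rests on their readings of at most a few units.

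The correlations of miR-422a were negative on scaled signal. On scaled signal it correlated with miR-885-5p at r = -0.72 (exact permutation p = 0.0532, adjusted 0.0798) and rho = -0.81 (exact permutation p = 0.0218, adjusted 0.0373), with r = -0.70 without the 2 mice farthest from the median of miR-422a. With miR-523-5p the values were r = -0.75 (exact permutation p = 0.0385, adjusted 0.0660) and rho = -0.71 (exact permutation p = 0.0576, adjusted 0.0864), and with miR-1246 r = -0.57 (exact permutation p = 0.138) and rho = -0.60 (exact permutation p = 0.132). Of these 3 relations, only the rho with miR-885-5p passed adjustment. The r with miR-523-5p had a p above 0.05 without CLP mouse 1, 4, 5, 6 or 8 (exact permutation p = 0.0667 to 0.120), and with median scaling it was -0.55 (exact permutation p = 0.163). The r with miR-885-5p was -0.47 with median scaling (exact permutation p = 0.233) and -0.50 with the 75th percentile (exact permutation p = 0.207). Its p fell below 0.05 without CLP mouse 7 (r = -0.83) or 8 (r = -0.77). On raw signal, where all probes share the level of the mouse, the same 3 pairs had r = 0.31 (exact permutation p = 0.478), -0.19 (exact permutation p = 0.636) and 0.10 (exact permutation p = 0.809). Division of both probes by the same geometric mean enters every scaled relation.

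The ratio of miR-422a to miR-885-5p, which no scaling factor touches, shows the same spread. In CLP mice it had a lowest value of 0.892 in mouse 3, a median of 2.11 and a highest of 4.82 in mouse 6. In sham mice it was 1.19, 2.70, 0.948, 3.93 and 1.07 for mice 1 to 5. The ratio thus varied several-fold within each group and overlapped wholly between groups, with a log2 difference of 0.22 (exact permutation test, two-sided, p = 0.687, adjusted 0.687).

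**Figure D4:**
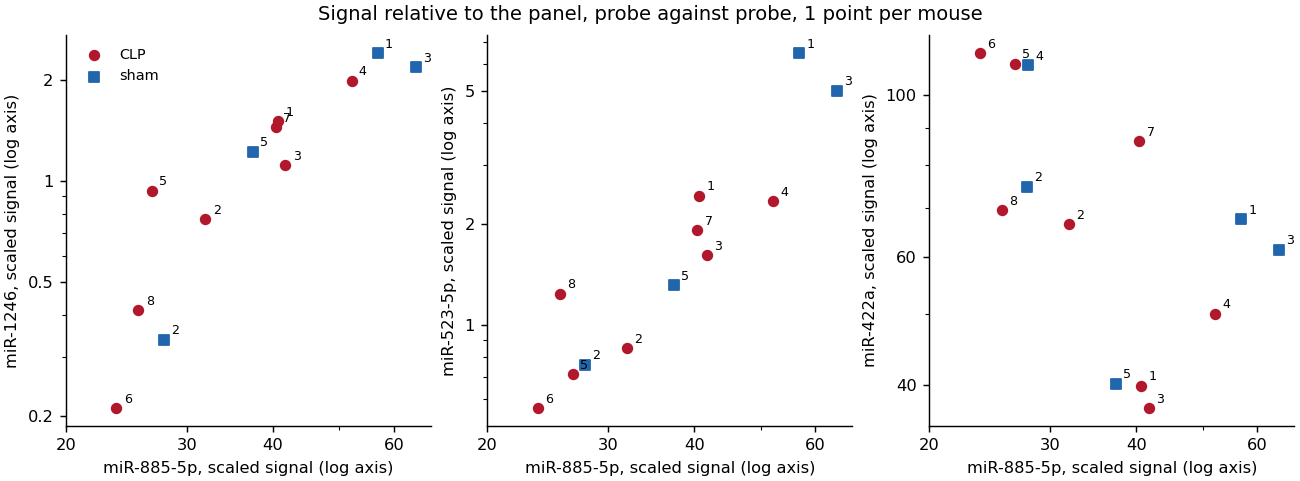
Scaled signal (log axes) of miR-1246, miR-523-5p and miR-422a (y axes) against that of miR-885-5p (x axis), 1 point per mouse with its number, CLP as red circles and sham as blue squares; sham mouse 4, at 0, is left out of the first 2 plots. The first 2 plots run upward (r = 0.88 and 0.87 over the 8 CLP mice) and the third downward (r = -0.72).

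Likeness to the rest of the panel was measured as Pearson r over the 13 mice on deviations of floored log2 raw signal from the group means, a description in which all probes share the level of the mouse. For miR-885-5p the most alike probes were miR-125a-5p (r = 0.98), miR-339-5p (0.98) and miR-16-2-3p (0.97), against a median of 0.80 over the other 67. miR-125a-5p is a paralog of the haematopoietic miR-125b, and miR-16-2-3p is the strand opposite miR-16 in its hairpin. On scaled signal, with the level of the mouse removed, miR-431-3p (0.92), miR-125a-5p (0.91) and miR-339-5p (0.90) were the most alike, against a median of 0.10. miR-125a-5p and miR-339-5p were thus among the 3 most alike with and without scaling.

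For miR-422a the most alike probes were miR-203a-3p (r = 0.91), miR-205-5p (0.85) and miR-200a-3p (0.82), against a median of 0.60. miR-203 and miR-205 are abundant in skin, and miR-200a represses the ZEB transcription factors. miR-429, of the same family as miR-200a, stood at 0.38, rank 60 of 67. On scaled signal miR-26a-5p (0.66) came first, and miR-203a-3p (0.56) and miR-205-5p (0.40) ranked 3 and 5, against a median of -0.06, while miR-200a-3p was at -0.14, rank 38 of 66. In raw signal the 3 brightest CLP mice were mice 2, 5 and 6 for both miR-422a and miR-203a-3p. There miR-203a-3p read 270.41, 182.24 and 171.67 units, against 20.83 to 91.46 units in the other 5 CLP mice.

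For the dim pair the floor leaves little to compare, since 9 of 13 values of miR-523-5p and 12 of 13 of miR-1246 sit on it. Each was the other's most alike probe (r = 0.88), followed by miR-376b-3p (0.84 for miR-523-5p, 0.79 for miR-1246) and miR-154-3p (0.70 and 0.64). Without the floor, over the 12 mice with no zero, miR-1246 was most like miR-431-3p (0.92), miR-523-5p (0.90) and miR-885-5p (0.88), against a median of 0.55. In that measure miR-885-5p was the third most alike probe of 67 for miR-1246 and the fourth for miR-523-5p (0.77), while miR-422a ranked 62nd for both (0.15 and -0.12).

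The mouse sequences of the probes most alike in the floored measure are shown so that the 3 groups can be compared, with bases 2 to 8 again in capitals. For miR-1246 that measure rests on CLP mouse 4, its single value above the floor. Without the floor, miR-376b-3p and miR-154-3p ranked 6 and 12 for miR-1246 and 5 and 10 for miR-523-5p. There miR-431-3p ranked 1 and 2, so the last pair below depends on the floor. The first 3 go with miR-885-5p, the next 3 with miR-422a and the last pair with miR-523-5p and miR-1246.
miR-125a-5p: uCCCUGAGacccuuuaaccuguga
miR-339-5p: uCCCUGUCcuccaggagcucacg
miR-16-2-3p: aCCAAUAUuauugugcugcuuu
miR-203-3p: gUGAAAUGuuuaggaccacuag
miR-205-5p: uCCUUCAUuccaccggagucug
miR-200a-3p: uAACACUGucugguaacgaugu
miR-376b-3p: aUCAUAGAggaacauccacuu
miR-154-3p: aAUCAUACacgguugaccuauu
These are mature mouse miRNAs of RefSeq on GRCm38.p6, and the mouse miR-203-3p stands for the probe miR-203a-3p. No seed is shared by any 2 of them or with the miR-378 sequences above. The share of G and C was 50%, 65.2% and 31.8% in the group of miR-885-5p and 40.9%, 54.5% and 40.9% in that of miR-422a, in the order shown, so neither group was uniform in base composition. miR-376b-3p and miR-154-3p lie in the same region of mouse chromosome 12, at chr12:109723508-109723528 and chr12:109738474-109738495 on the plus strand. That region is not particular to this pair. miR-431-3p, the probe most like miR-885-5p on scaled signal, lies nearby at chr12:109590502-109590523 on the plus strand.

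The probes followed the level of the mouse to different degrees. Within groups, the slope of log2 raw signal on log2 level was 1.09 (SE 0.20) for miR-885-5p and 0.69 (SE 0.23) for miR-422a, against a median of 1.02 and a range of 0.29 to 2.27 for the other 64 probes. The slope was 1.09 (SE 0.52) for miR-1246 and 0.46 (SE 0.45) for miR-523-5p, both over the 12 mice in which they were above 0. All 4 slopes lay inside the range of the other probes, and those of miR-422a, miR-885-5p and miR-1246 were more than 2 SE above 0.

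By class of name, the 4 probes without a mouse gene had mean raw signals over all mice from 1.12 to 69.6 units, with a median of 19.4. The 5 probes with a mouse gene of the same number only (miR-151a-5p, miR-203a-3p, miR-320a, miR-320d and miR-33a-5p) ran from 17.5 to 788 units with a median of 122.6, and the 59 of the same number and letter from 2.66 to 4793 units with a median of 455. On the unscaled signal 2 of 2 tested probes without a mouse gene rose, 5 of 5 with the same number only and 53 of 59 with the same number and letter. The median changes were 1.81, 2.14 and 1.82 log2 units. After scaling 0 of 2, 0 of 5 and 20 of 58 passed in either direction. These counts and medians are descriptions, and the classes were not tested against each other.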

How the data were processed

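Raw and scaled values are fluorescence intensity on a linear scale. Per the labels' protocols, the authors isolated plasma exosomes by ultracentrifugation, extracted RNA with the miRNeasy Micro Kit and read it on FirePlex particles. The particle scanner and background treatment were not given in the sources used here. In the second table that the authors deposited, each mouse's intensity equals its raw values multiplied by a single factor (0.450 to 4.31). The number of arrays limits the precision of every value.

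Values were floored at the 5th percentile of positive values (2.10 units raw, 3.09 scaled) and log2 was taken. The correlations among the 4 probes and the slopes on the level of the mouse used log2 values without a floor. Probes above the floor in at least 5 mice were tested (66 unscaled, 65 scaled) with limma 3.58.1 in R 4.3.3, two-sided, with Benjamini-Hochberg adjustment over all probes tested, adjusted p under 0.05 and no covariate. Exact tests enumerated every split or ordering of the mice, in R per probe and in Python 3.11.15 with numpy 2.4.6 for ratios and correlations. The fit was tested on simulated data. Names were matched to RefSeq tables of GRCm38.p6 by symbol, synonym or mature name, and 10 of 11 probes named beside the 4 had a mature sequence.

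All 4 probes were named, with the 3 probes most alike to each, the 5 dimmest others and any miR-378 or chromosome 19 cluster probe. The 5 probes with only their number in the mouse table were added to these once values were known. The rule for the 4 probes uses names only, but it, the lists and the tests were proposed with earlier results of these data known.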

Additional observations from a re-analysis of the deposited data

How the results depend on the processing

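Over the alternatives run, the unscaled rise of miR-422a and miR-885-5p held, with 2 of 2 called, except in 2 fits. With the level of the mouse, itself higher on average in CLP, as a covariate, 0 were called, and 8 probes of the panel (miR-885-5p at -0.42). Without sham mice 1 and 4, 1 was called, and 37 of the panel. Both of these fits were chosen after the data were seen, as were log2(value + 1) over all 68 probes, the permutation test on linear signal, the ratios and the correlations. With each mouse left out in turn, 2 stayed called, miR-422a ran from 1.67 to 2.08 and miR-885-5p from 1.34 to 2.02, and 56 to 63 probes of the panel were called. In the scaled fit 0 passed under any of the 26 alternatives run. The panel's 20 calls (7 higher, 13 lower) became 18 higher and 4 lower with the 75th percentile, 13 higher and 6 lower in the authors' values, 12 with quantile normalization, 6 with the replicate number as a block (17 without the block over the same 10 mice, numbers 1 to 5), and 13 to 22 with 1 mouse left out, the lowest without sham mouse 2. Scaled miR-422a, near 0, turned positive with the 75th percentile (0.33), the authors' values (0.19), quantile normalization (0.022) and without sham mice 1 and 4 (0.22), and ran from -0.20 to 0.16 with 1 mouse left out. Scaled miR-885-5p turned to 0.10 with the 75th percentile. The cause of these changes was not tested. Raw correlations of miR-422a ran from -0.46 to 0.48 with miR-1246, from -0.74 to 0.026 with miR-523-5p and from -0.32 to 0.45 with miR-885-5p when 1 CLP mouse was left out. Numbers shared by CLP and sham mice were not treated as pairs in the main fits. Correlations of same-numbered mice, numbers 1 to 5, ran from -0.34 to 0.29, too few to decide whether the numbers mark pairs. The block (62 panel calls unscaled, with and without it) changed no call of miR-422a or miR-885-5p, the 2 of the 4 probes it could be run on. miR-1246 and miR-523-5p lie below the floor in most mice, so low signal limits what can be said of them.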
